A study of Mus musculus with 8 samples.

Results

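The AP-1 and EGR immediate early factors taken up here are 10 of the 32098 genes in the deposited table of 8 mouse tumours, chosen by symbol: Fos, Fosb, Fosl1 and Fosl2 (the Fos family), Jun, Junb and Jund (the Jun family), and Egr1, Atf3 and Ier2. All 10 were found, and all 10 were among the 13439 genes tested, which had at least 1 FPKM in at least 4 tumours. FPKM is the number of sequenced fragments scaled by gene length and by sequencing depth, so levels can be compared between genes. The tumours were grown from 4T1, a mouse mammary carcinoma line labelled wild type, and RNA of the whole tumour was sequenced. In the ICI group (replicates 1, 2, 3 and 4) an immune checkpoint inhibitor was given. In the RI group (replicates 1, 2, 4 and 5) the same class of agent was given with radiation. Both groups therefore carry the inhibitor, and no untreated or radiation-only tumour is among them. The labels name neither the antibody, the dose, the time of harvest nor whether an RI tumour lay in the irradiated field. Nor is it stated that the tumours were of separate mice, so p-values here reflect the spread among these samples only, and that spread may be technical. The series text speaks of 3 replicates in a group, but 4 are listed in each and all 8 were used.

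Jun and Fos proteins pair through leucine zippers to form AP-1, a transcription factor that binds the palindrome TGACTCA. Jun proteins can pair with one another, whereas Fos proteins need a Jun partner. Genes of both families, such as Fos, Fosb, Jun and Junb, are immediate early genes. Growth factors, cytokines, stress and ionising radiation switch these on within minutes through the MAP kinases, with no need for new protein. Their messages decay quickly. EGR1 is a zinc finger factor driven by the same kinases through serum response factor. ATF3 is a stress-induced relative of AP-1 that pairs with Jun proteins, and IER2 is a nuclear protein of the same early wave. FOSL1 (FRA-1) and FOSL2 (FRA-2) are the longer-lived members of the Fos family, and FOSL1 is known for its high level in invasive mammary carcinoma cells.

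RNA from the genes Fos, Jun, Junb and Jund fell in the RI tumours, and these were the members that passed the test. The sequence just upstream of the start is shown for Fos, Jun and Junb, 3 of the 4 called members, to show which of the known control elements the searched letters find there. Jund, the called member not shown, was searched too, and none of the motifs was found in it. RefSeq (GRCm38.p6) held a promoter entry for 7 of the 10 members, all but Fosl1, Egr1 and Ier2. The 250 bases before the start were searched on both strands in those 7 and in all 32851 entries. Printed are the last 150 bases before the start, 5′ to 3′ on the gene's strand. The intervals are chr12:85473740-85473889 (plus strand) for Fos, chr4:95052223-95052372 (minus strand) for Jun and chr8:84978749-84978898 (minus strand) for Junb, whose RefSeq start lies upstream of that of the gene model used here. Capitals mark TGACG and TATAAA in Fos, CCAAT and TGACATCA in Jun, and TGACG and CCAAT in Junb. The searched motif GGGCGG also lay in the printed stretches, on the other strand, and is left in lower case. Its places were 74 to 69 bases before the start of Fos and 89 to 84 before that of Jun.
Fos: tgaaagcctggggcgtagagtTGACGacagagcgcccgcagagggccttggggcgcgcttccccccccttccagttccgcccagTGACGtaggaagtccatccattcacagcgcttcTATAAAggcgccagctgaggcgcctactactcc
Jun: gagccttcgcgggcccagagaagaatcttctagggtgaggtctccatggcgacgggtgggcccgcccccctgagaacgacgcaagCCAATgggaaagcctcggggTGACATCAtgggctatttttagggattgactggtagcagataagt
Junb: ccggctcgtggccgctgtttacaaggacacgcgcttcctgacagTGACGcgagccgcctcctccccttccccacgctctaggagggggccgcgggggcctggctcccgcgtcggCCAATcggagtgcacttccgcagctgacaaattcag

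TGACATCA, a form of the AP-1 site through which Jun acts on its own gene, lay 45 to 38 bases before the start of Jun and was found in 1 of the 7 member promoters and 2.93% of all. TGACG, the opening of the cyclic AMP element TGACGTCA, was found in 4 of the 7 (Fos, Fosb, Junb and Atf3) and in 17.8% of all. Fos held it at 129 to 125 and at 66 to 62 bases before the start, both upstream of the TATA box that ran from 33 to 28. The full TGACGTCA was in 0 of the 7 and 1.55% of all, TGACTCA in 0 and 4.46%, and the CArG box bound by serum response factor in 0 and 1.47%. GCGNGGGCG, a site for EGR proteins, was in 2 of the 7 (Fosb and Fosl2) and 4.70% of all. It overlapped GGGCGG, the GC box, which was in 5 of the 7 and 32.7% of all. CCAAT was in 2 (Jun and Junb) and 33.8%, and TATAAA in 1 (Fos) and 12.4%. A match is a description of the letters in this window and not a mapped site. A count of 0 covers these 250 bases only, so it cannot show that a gene lacks the element further upstream. Fosl1, Egr1 and Ier2 were not searched.

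The steps by which low FPKM values rise gave the depth, 27013094 (RI 1) to 42622678 (RI 5) fragments per tumour. Between 281 (Fosb in RI 1) and 17047 (Jun in ICI 4) of them belonged to a single member in a single tumour, so counting error was small beside the spread between tumours. One library in each group stood apart. ICI 1 had the highest summed level of 9 neutrophil markers, 21478 FPKM, where the remaining ICI tumours had 225 to 660 and the RI tumours 29.8 to 89.4. In RI 4 the models Gm55118, Rn18s-rs5 and Gm55094, of which Rn18s-rs5 is related to 18S ribosomal RNA, made up 60.7% of all FPKM, where the remaining 7 tumours had 0.968% to 2.25%. The median tested gene of RI 4 lay 0.21 below its mean over the 8 tumours on the log2 scale. The 10 markers of 4T1 epithelium summed to 1314 to 2500 FPKM in ICI and 967 to 1762 in RI. Only 6 of them reached 1 FPKM in at least 4 tumours, so the sum does not speak for every marker.

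RNA of the inhibitor-plus-radiation tumours held less Fos, Jun, Junb and Jund. Of 13439 genes tested with limma on log2(FPKM + 1), 17.7% passed at a Benjamini-Hochberg adjusted p under 0.05, and 6.60% passed and were lower in RI (11.1% were higher). Of the 10 members 4 fell and 0 rose. At an unadjusted p under 0.05 there were 6 lower and 0 higher, where 15.5% of all genes were lower. Limma voom on the recovered fragments also gave 4 falls and 0 rises, with 7.97% of its genes called lower. The median difference of the members was −0.90 on the log2 scale, against 0.01 for all genes tested, and 9 of 10 were lower in RI. For Fos, Jun, Junb and Jund the 4 RI values all lay below the 4 ICI values, an order shared by 11.2% of tested genes. In whole-tumour RNA, fewer cells that express a gene and less of its RNA per cell cannot be told apart.

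**Figure D1:**
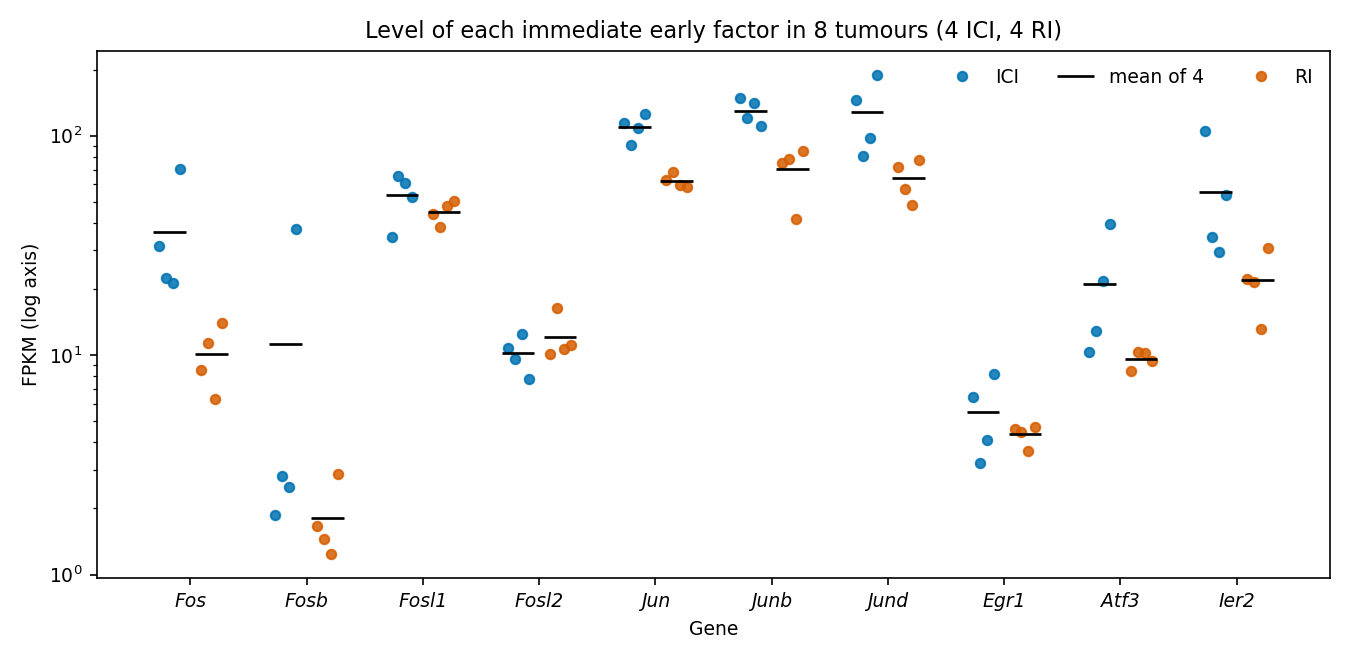
FPKM (log axis) of each of the 10 genes in the 4 ICI and 4 RI tumours, 1 point per tumour, with a bar at the mean of 4. For Fos, Jun, Junb and Jund the groups do not overlap, and Fosb in ICI 4 (37.7 FPKM) stands apart from the other 7 tumours.

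Fos, the founding member of its family and the archetypal early gene, had the largest difference of the 10. Its level was 31.3, 22.4, 21.4 and 70.3 FPKM in ICI 1, 2, 3 and 4 and 8.55, 11.4, 6.28 and 14.04 FPKM in RI 1, 2, 4 and 5. Every RI tumour was below every ICI tumour, and ICI 4 was the highest of the 8. Mean FPKM fell from 36.4 ± 23.0 to 10.1 ± 3.38 (SD, n = 4 per group). On the log2 scale RI minus ICI was −1.64 (standard error 0.38, 95% interval −2.50 to −0.78, adjusted p = 0.0249). Of all genes tested 0.588% had a more negative difference. The mean was 3.61 times as high in ICI as in RI, and 2.49 times without ICI 4, in which fit Fos still passed (adjusted p = 0.0492). It did not pass without RI 1 (adjusted p = 0.0609), without RI 2 (0.0572), without RI 4 (0.0530), or without ICI 1 and RI 4 together (0.0620), where the log2 difference was −1.46.

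Fosb, a close relative of Fos that is induced with it, was low in 7 tumours and high in 1. It stood at 1.86, 2.82, 2.51 and 37.7 FPKM in ICI 1, 2, 3 and 4, and at 1.67, 1.45, 1.24 and 2.89 FPKM in RI 1, 2, 4 and 5. Leaving ICI 4 aside, the remaining ICI range of 1.86 to 2.82 FPKM lay inside the RI range of 1.24 to 2.89. RI minus ICI was −1.18 on the log2 scale, standard error 0.77 (adjusted p = 0.304), and −0.30 without ICI 4 (adjusted p = 0.419). In ICI 4 the gene had 10009 fragments against 281 to 768 elsewhere, so its level there does not rest on a few fragments.

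Fosl1 and Fosl2 did not pass in the test as set. Fosl1, the most abundant of the Fos family on average, was 34.5, 65.8, 60.8 and 52.6 FPKM in ICI 1, 2, 3 and 4, against 43.8, 38.2, 47.6 and 50.5 in RI 1, 2, 4 and 5. Its lowest value was in ICI 1, a tumour in which Fos was second highest of the 8. The log2 difference was −0.21 (95% interval −0.69 to 0.27, adjusted p = 0.506), and it was 0.027 once the trends on exon length and GC content were removed. It was −0.40 without ICI 1 (adjusted p = 0.0850), and with array weights Fosl1 passed (−0.50, adjusted p = 0.0193). Fosl2 was 10.8, 9.63, 12.5 and 7.80 FPKM in ICI 1, 2, 3 and 4, against 10.2, 16.4, 10.7 and 11.1 in RI 1, 2, 4 and 5. It was the member with a higher mean in RI, by 0.22 (95% interval −0.20 to 0.64, adjusted p = 0.418), which became −0.028 with those trends removed. These intervals leave room for a change of either sign.

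Within each tumour the Fos family was made up differently in the 2 groups, a description that a single scaling factor per library cannot move. Quantile normalization or a correction for exon length can move it, and the shares were not recomputed under either. Fosl2 has 9680 bases of exon and Fos 2352, and with the length and GC trends removed the difference of Fosl2 went from 0.22 to −0.028. Fos itself held 39.9%, 22.3%, 22.03% and 41.7% of the family's summed FPKM in ICI 1, 2, 3 and 4, against 13.3%, 16.9%, 9.53% and 17.9% in RI 1, 2, 4 and 5. The lowest ICI share was above the highest RI share. Fosl2 held 4.63% to 13.7% in ICI and 14.1% to 24.3% in RI, without overlap but with a narrow gap. Its FPKM did overlap, at 7.80 to 12.5 in ICI and 10.2 to 16.4 in RI. Shares of a family are tied, since less Fos alone raises the shares of the others. The separation in share is therefore not a result apart from the fall of Fos, and no background share was computed for it. Fosl1 was the largest part in 7 of 8 tumours, at 31.2% to 65.3% in ICI and 56.6% to 72.3% in RI, and in ICI 4 it was second to Fos. The ratio of Fosl1 to Fos was 1.10, 2.93, 2.84 and 0.748 in ICI 1, 2, 3 and 4, against 5.13, 3.35, 7.59 and 3.60 in RI 1, 2, 4 and 5.

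**Figure D2:**
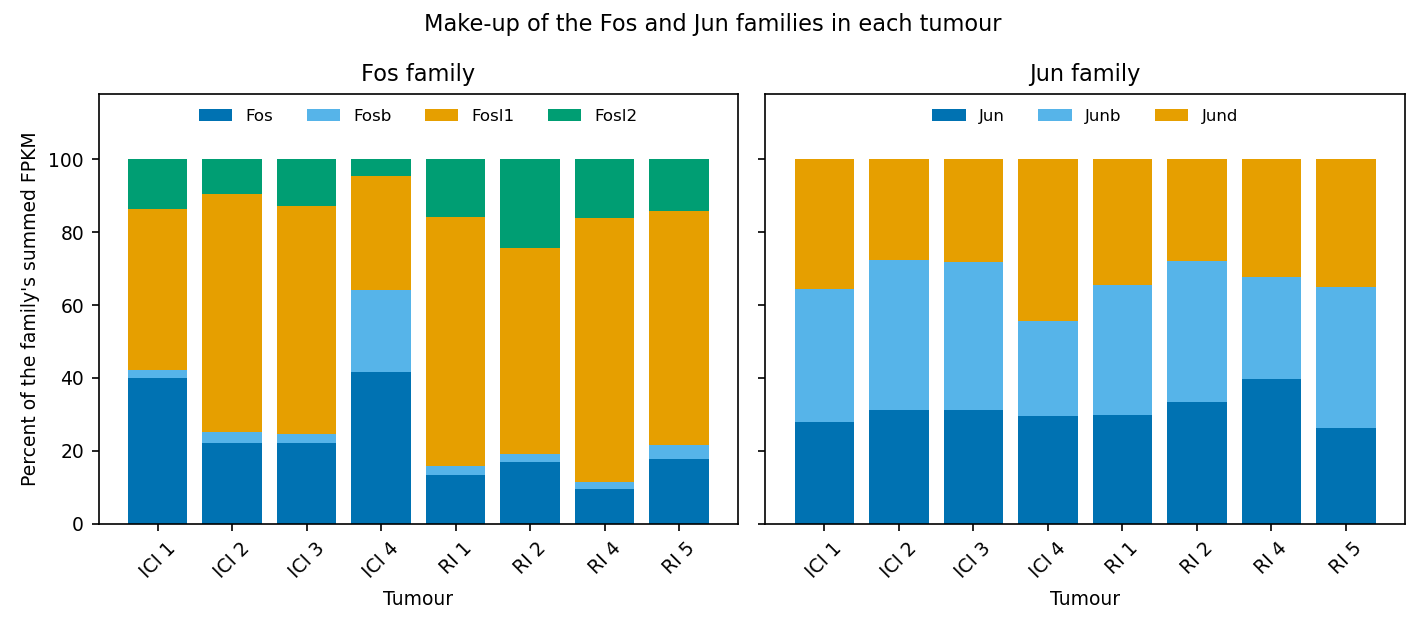
Percent of the summed FPKM of the Fos family (left) and of the Jun family (right) held by each gene, 1 bar per tumour. Fos takes 22.03% to 41.7% of its family in ICI and 9.53% to 17.9% in RI, while the shares of Jun, Junb and Jund overlap between the groups.

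Fos proteins need a Jun partner, and all 3 Jun genes fell. Jun, the partner most associated with proliferation and stress, was 115, 90.9, 108 and 126 FPKM in ICI 1, 2, 3 and 4. In RI 1, 2, 4 and 5 it was 62.7, 68.0, 59.5 and 58.1 FPKM. The spread within each group was narrow, with the highest ICI tumour at 1.38 times the lowest and the highest RI tumour at 1.17 times the lowest. Mean FPKM went from 110 ± 14.5 to 62.1 ± 4.39 (SD, n = 4 per group), which on the log2 scale is −0.81 (standard error 0.16, 95% interval −1.16 to −0.46, adjusted p = 0.0154). Jun passed in 7 of the 8 fits that left out 1 tumour and missed without ICI 4 (adjusted p = 0.0544). It also passed without ICI 1 and RI 4 together (−0.76, adjusted p = 0.0146).

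Junb, a Jun protein with weaker transactivation that can restrain Jun, had the highest mean of the 10 in both groups. It was 148, 120, 141 and 111 FPKM in ICI 1, 2, 3 and 4 and 75.1, 78.4, 41.7 and 85.5 FPKM in RI 1, 2, 4 and 5. RI 4 was the lowest, and the other RI tumours were still below the lowest ICI tumour. RI minus ICI was −0.92 on the log2 scale, standard error 0.24 (adjusted p = 0.0316), and −0.63 without ICI 1 and RI 4 together (adjusted p = 0.0163). It did not pass without ICI 2 (adjusted p = 0.0534), ICI 3 (0.0610), ICI 4 (0.0697), RI 1 (0.0612) or RI 2 (0.0635).

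Jund, the Jun protein found in resting cells and often linked with slower growth, was 146, 80.7, 97.8 and 190 FPKM in ICI 1, 2, 3 and 4. In RI 1, 2, 4 and 5 it was 72.3, 56.9, 48.5 and 77.8 FPKM. The gap between groups was narrow, from 77.8 FPKM in RI 5 to 80.7 FPKM in ICI 2. On the log2 scale Jund differed by −0.94, standard error 0.28 (adjusted p = 0.0480), and it passed in 1 of 8 fits without a tumour, that without ICI 2 (0.0364). The other 7 gave adjusted p of 0.0544 to 0.119. With the length and GC trends removed the difference was −0.57 (adjusted p = 0.130), though the exon length used there gave no whole fragment numbers for Jund.

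The 3 Jun genes together summed to 409, 291, 347 and 426 FPKM in ICI 1, 2, 3 and 4, and to 210, 203, 150 and 221 FPKM in RI 1, 2, 4 and 5. The highest RI sum was below the lowest ICI sum. Their proportions overlapped between the groups, Jun holding 28.1% to 31.2% in ICI and 26.2% to 39.7% in RI. The Jun sum was 2.53 to 5.20 times the Fos family sum in ICI and 2.27 to 3.27 times in RI, so in each tumour there was more Jun-family than Fos-family message per length of gene.

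EGR1, a zinc finger factor that shares its upstream kinases with FOS, did not follow Fos in passing the test. Egr1 was 6.47, 3.21, 4.08 and 8.18 FPKM in ICI 1, 2, 3 and 4, against 4.62, 4.47, 3.64 and 4.69 in RI 1, 2, 4 and 5. The 4 RI values lay inside the ICI range, whose ends were ICI 2 and ICI 4. The log2 difference was −0.21 (95% interval −0.74 to 0.31, adjusted p = 0.540) and was 0.051 with array weights, so no direction is given.

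Atf3 and Ier2 were lower in RI on average and missed the threshold. Atf3 was 10.3, 12.9, 21.8 and 39.4 FPKM in ICI 1, 2, 3 and 4, against 8.46, 10.3, 10.2 and 9.38 in RI 1, 2, 4 and 5. ICI 1 was level with the highest RI tumour, and the RI tumours varied by 1.22 times against 3.82 times in ICI. The log2 difference was −0.88 (95% interval −1.68 to −0.09, adjusted p = 0.107), −0.53 without ICI 4 (adjusted p = 0.179) and −1.14 without ICI 1 (adjusted p = 0.0367). Ier2 was 105, 34.7, 29.4 and 53.5 FPKM in ICI 1, 2, 3 and 4, against 22.2, 21.5, 13.1 and 30.9 in RI 1, 2, 4 and 5. Only RI 5 reached into the ICI range, above ICI 3. Ier2 differed by −1.18 on the log2 scale, standard error 0.40 (adjusted p = 0.0682). It passed after upper-quartile scaling (0.0461), after median centring (0.0435), with array weights (0.0381) and without ICI 3 (0.0466). Without ICI 1, its highest tumour, the difference was −0.82 (adjusted p = 0.0764), and without ICI 1 and RI 4 together −0.61 (adjusted p = 0.106).

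**Figure D3:**
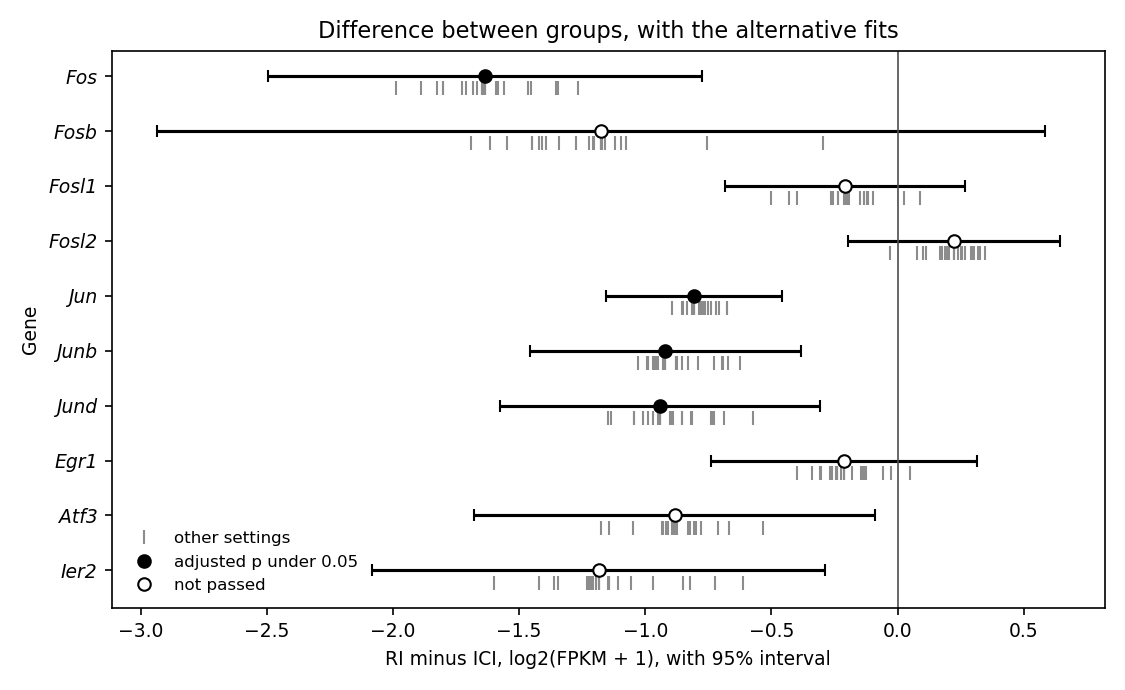
Difference RI minus ICI of each gene on the log2(FPKM + 1) scale with its 95% interval, filled where the adjusted p was under 0.05, and below it a tick for each of the other settings tried (23, or 22 for Egr1). The ticks of Fos, Fosb, Jun, Junb, Jund, Atf3 and Ier2 all lie below 0, and those of Fosl1, Fosl2 and Egr1 fall on both sides.

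Read setting by setting, the count of members that fell is set beside the share of all genes called lower. No filter on low values gave 0 members and 0.159% of genes, TPM 1 and 0.655%, and the replicate number as a block 0 and 0.0446%, or 0 and 0.00% with the length and GC correction. A mean of at least 5 FPKM gave 4 members and 9.94%, pseudocounts of 0.1 and 5 gave 4 each with 6.21% and 6.51%, and limma without trend and robust variance 4 and 6.58%. Among the scalings, quantile normalization gave 4 and 10.5%, upper-quartile scaling 5 and 11.5%, and median centring 5 and 12.1%, while array weights gave 6 and 11.8%. Without ICI 1, 2, 3 and 4 in turn the members that fell were 4, 3, 3 and 1, beside 8.29%, 3.91%, 4.74% and 0.692% of genes. Without RI 1, 2, 4 and 5 in turn they were 1, 1, 2 and 3, beside 3.28%, 1.96%, 3.37% and 2.80%. Without ICI 1 and RI 4 together they were 2 (Jun and Junb), beside 7.88%. The 1 member left was Fos without ICI 4 and Jun without RI 1 or RI 2.

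In order of mean level in ICI the members ran Junb, Jund, Jun, Ier2, Fosl1, Fos, Atf3, Fosb, Fosl2 and Egr1, from 130 ± 17.5 down to 5.48 ± 2.26 FPKM (SD, n = 4). Each neighbouring pair in that order had overlapping ranges. In RI the order was Junb, Jund, Jun, Fosl1, Ier2, Fosl2, Fos, Atf3, Egr1 and Fosb, from 70.2 ± 19.5 down to 1.81 ± 0.737 FPKM (SD, n = 4). There the ranges did not overlap between Jun and Fosl1, between Fosl1 and Ier2, between Atf3 and Egr1, or between Egr1 and Fosb. Among the 13439 genes tested the mean of Junb was higher than that of 96.6%, the mean of Fos than that of 83.1%, and the mean of Egr1 than that of 37.8%.

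Tumour by tumour, 6 of the 10 members were highest in ICI 4, 2 in ICI 1, and 1 each in ICI 2 and RI 2. Of all genes tested 9.44% were highest in ICI 4 and 24.0% in ICI 1. Those highest in ICI 4 were Fos, Fosb, Jun, Jund, Egr1 and Atf3, and those highest in ICI 1 were Junb and Ier2. RI 4 was lowest for 5 of 10 members, but it was also lowest for 36.2% of all genes tested. In RI 1 and RI 4 all 10 members lay below their own mean over the 8 tumours, in RI 2 it was 9 and in RI 5 it was 8. In ICI 1, 2, 3 and 4 the members above that mean were 6, 5, 7 and 9. High values in ICI 4 pull some of these means up, and Fosb lay above its mean in ICI 4 alone. The median tested gene stood at −0.21 from its mean in RI 4 on the log2 scale. In RI 1, 2 and 5 it stood at 0.088, 0.082 and 0.087.

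Several measures of the libraries moved with these genes. The mitochondrially encoded share of fragments was 6.73%, 5.28%, 4.37% and 8.14% in ICI 1, 2, 3 and 4. In RI 1, 2, 4 and 5 it was 2.89%, 3.22%, 2.56% and 2.70%. In ICI the tumours stood in the same order as for Fos, while in RI they did not. Neutrophil markers were lower in RI for 8 of 8 tested, 2 of them called, and none of the 9 found was at 0 in every tumour. Erythroid markers summed to 209 to 1064 FPKM in ICI and 0.465 to 103 in RI, with all 4 tested lower and 2 called. Fibroblast markers summed to 66.1 to 86.7 FPKM in ICI and 124 to 542 in RI, with 4 of 9 tested rising, and skeletal muscle markers to 15.9 to 314 and 147 to 672, with 3 of 10 rising. Of the other lists, carcinoma epithelium had 1 fall among 6 tested, T and NK cells 1 among 5, B and plasma cells 1 among 3 and keratinocytes 1 among 2. Macrophages had 2 rises among 8, and endothelium (5 tested) and adipocytes (2 tested) had no call. Beside these counts, 6.60% of all genes tested fell and 11.1% rose, and 1 call in a list this short is not set apart from those shares. ICI 4, where Fos, Fosb and Atf3 peaked, had 660 FPKM of neutrophil markers, second to ICI 1 among the 8 tumours. The part of these measures in the results was not tested.

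Short genes and GC-rich genes were lower in RI across the whole table. The 3331 genes with the shortest exons (up to 1984 bases) had a median log2 difference of −0.29, and the 3329 with the longest (from 6167 bases) 0.22. The 3330 with the highest GC content (above 54.5%) had a median of −0.14. Exon length in GENCODE M21 was 1522 bases for Ier2, 1668 for Jund, 2301 for Junb, 2352 for Fos and 3189 for Jun, against 9680 for Fosl2, and GC content was 67.1% for Jund, 62.6% for Junb, 55.5% for Jun and 51.9% for Fos. With both trends removed from each library 9.41% of genes were called lower in RI, and Fos (−1.56, adjusted p = 0.0235), Jun (−0.77, adjusted p = 0.0126) and Junb (−0.67, adjusted p = 0.0215) passed.

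**Figure D4:**
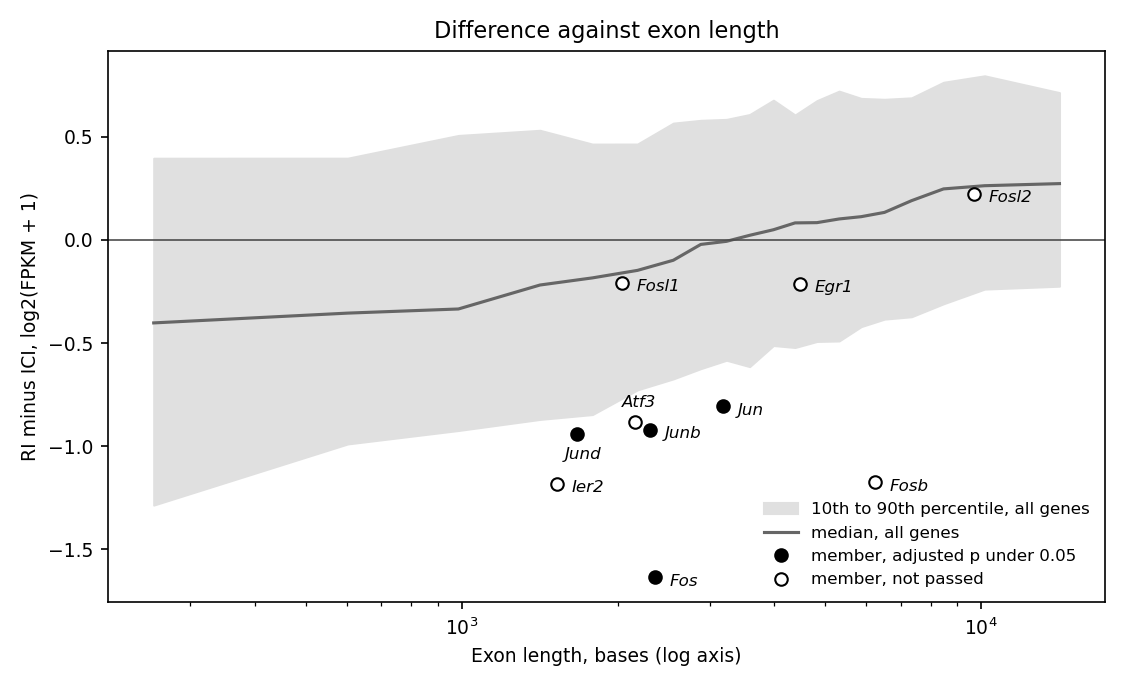
Difference RI minus ICI on the log2(FPKM + 1) scale against exon length (log axis): the 10 members as points, filled where the adjusted p was under 0.05, over the median and the 10th to 90th percentile of all genes in 20 equal groups by length. Fos (−1.64), Jun (−0.81), Junb (−0.92) and Jund (−0.94) lie below the median of genes of their length, and Fosl1 and Fosl2 lie close to it.

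The members' places in the genome (GENCODE M21, GRCm38) bear on how far the counts can be trusted. Jun, Jund and Ier2 are single-exon genes. Jun (ENSMUSG00000052684, chromosome 4, 95049034 to 95052222) overlaps the antisense gene Junos, which averaged 5.28 FPKM in ICI and 6.14 in RI. Fos (ENSMUSG00000021250, chromosome 12, 85473890 to 85477273) overlaps no other gene of the table. Junb (chromosome 8, 84974484 to 84978718) meets Prdx2 on the other strand, at 50.9 and 43.6 FPKM, and Fosl1 (chromosome 19, 5447547 to 5455946) meets Ccdc85b, at 31.0 and 20.4 FPKM. Whether counting used strand is not given in the sources used here, so fragments of these pairs could be shared. Jund (chromosome 8, 70698949 to 70700616) and Ier2 did not give whole fragment numbers with these exon lengths, whereas the other 8 members did in all tumours. The gene models behind the deposited values may differ for these genes. The length-corrected and limma voom results of Jund and Ier2 therefore rest on uncertain lengths.

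Around these factors stands a wider set of early genes. Of 40 other immediate early genes tested, 7 fell, 0 rose and 33 did not pass, where 6.60% of all genes fell. In RI 36 were lower, with a median of −0.50 on the log2 scale. At an unadjusted p under 0.05 there were 15 lower and 0 higher, beside 15.5% of all genes lower, and limma voom gave 8 falls and 0 rises, beside 7.97% called lower. Ppp1r15a (GADD34), which recruits a phosphatase to restart translation after stress, fell from 15.7 ± 3.35 to 5.54 ± 2.00 FPKM, by 1.38 on the log2 scale (SD, n = 4 per group, adjusted p = 0.0130), and passed in all 8 fits without a tumour. Id3, an inhibitor of helix-loop-helix factors, fell from 47.9 ± 14.9 to 22.2 ± 2.44 FPKM (adjusted p = 0.0216). Plk3, a stress-responsive kinase, fell from 38.5 ± 8.40 to 20.3 ± 6.28 FPKM (adjusted p = 0.0272), and Maff, a small Maf protein, from 20.3 ± 2.55 to 12.3 ± 1.91 (adjusted p = 0.0218). The remaining falls were Ier5, Per1 and Nr4a2, named after their values were seen. Of the 8 fits that left out 1 tumour, Id3 and Maff passed in 5 each, Plk3 and Per1 in 4 each, and Ier5 and Nr4a2 in 2 each. The most abundant genes of the list were Nfkbia, an inhibitor of NF-kappa B, at 135 ± 29.5 and 105 ± 27.3 FPKM (adjusted p = 0.308) and the RNA-binding protein gene Zfp36l2 at 97.2 ± 21.7 and 123 ± 19.7 (adjusted p = 0.243). Of the 40 genes 17 were highest in ICI 1 and 9 in ICI 4, and 29 were lowest in RI 4. For all genes tested these shares were 24.0%, 9.44% and 36.2%. Without ICI 1 and RI 4 together 4 of the 40 fell, not far above the 7.88% of all genes called lower in that fit. There 31 were lower, with a median of −0.26. Without ICI 4 alone 1 fell, beside 0.692% of all genes.

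**Figure D5:**
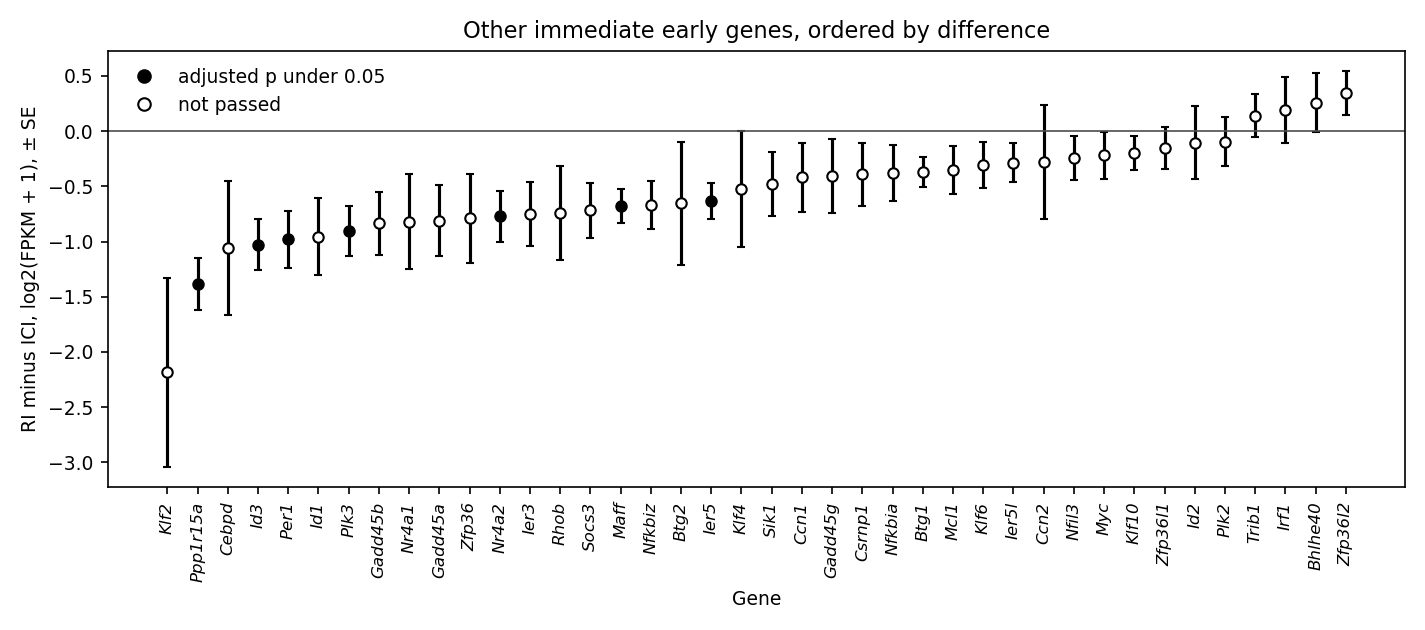
Difference RI minus ICI on the log2(FPKM + 1) scale, with its standard error, for the 40 other immediate early genes tested, in order of size and filled where the adjusted p was under 0.05. The 7 filled points all lie below 0, and 4 genes lie above 0, none of them filled.

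Upstream stand the kinases and factors that switch the members on. Srf, serum response factor, which binds the CArG box with ternary complex factors, was 11.6 to 30.6 FPKM in ICI and 31.7 to 37.4 in RI. It rose from 20.2 ± 7.82 to 34.3 ± 2.35 FPKM (SD, n = 4 per group, adjusted p = 0.0492), the 1 of 6 genes of its list to pass, and it passed in 2 of 8 fits without a tumour. Elk3, a ternary complex factor and the most abundant of them, was 33.0 ± 6.95 and 38.7 ± 5.50 FPKM (adjusted p = 0.377). Of 22 genes of the MAP kinase cascade tested 5 rose (11.1% of all genes rose) and 17 did not pass. With a median of 0.10, 12 were higher and 10 lower in RI. Rps6ka3, the kinase RSK2 downstream of ERK, rose from 6.62 ± 1.05 to 11.0 ± 0.298 FPKM (adjusted p = 0.0161). Map3k7, the kinase TAK1, rose from 8.75 ± 0.348 to 12.8 ± 1.31 FPKM (adjusted p = 0.0266). Mapk3, which encodes ERK1, went the other way without passing, 66.5 ± 16.3 against 46.6 ± 7.86 FPKM (adjusted p = 0.117), and Mapkapk2 was 42.4 ± 2.54 and 59.2 ± 8.33 (adjusted p = 0.0617). With the length and GC trends removed 2 genes of the cascade rose, Map3k7 missed (0.26, adjusted p = 0.0522) and Srf passed (1.00, adjusted p = 0.0317). Without 1 tumour in turn, Rps6ka3 passed in 6 and Map3k7 in 3 of the 8 fits.

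Of 14 dual specificity phosphatases and other ERK feedback genes 1 rose and 13 did not pass, a share near the 11.1% of all genes that rose. That was Dusp4, a nuclear MAP kinase phosphatase, from 6.57 ± 2.95 to 19.6 ± 8.01 FPKM (SD, n = 4 per group, adjusted p = 0.0309). Dusp1, the phosphatase most often induced with Fos, averaged 48.2 ± 46.6 FPKM in ICI, while RI had 14.3 ± 6.42 (adjusted p = 0.104). ICI 1 alone had 117.7 FPKM of it, and without that tumour the log2 difference went from −1.38 to −0.83. Dusp6, the ERK phosphatase, was 62.2 ± 6.74 and 72.8 ± 11.9 (adjusted p = 0.381). Among 4 tested genes of the other EGR factors and their NAB co-repressors 1 rose and 3 did not pass. Nab1, which binds EGR1 and damps it, rose from 13.8 ± 3.88 to 22.6 ± 2.41 FPKM (adjusted p = 0.0401), whereas Nab2 was 11.1 ± 1.41 and 8.22 ± 2.25 (adjusted p = 0.147). Without 1 tumour in turn, Dusp4 passed in 4 and Nab1 in 3 of the 8 fits.

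Other bZIP proteins that can pair with AP-1 factors were mixed, with 3 rises, 1 fall and 13 of 17 not passing. Across all genes tested 11.1% rose and 6.60% fell. Maf, a large Maf protein expressed in macrophages, rose from 2.51 ± 0.738 to 5.82 ± 1.72 FPKM (adjusted p = 0.0227). Atf1, of the CREB group, rose from 11.2 ± 1.43 to 16.8 ± 0.670 FPKM (adjusted p = 0.0234), and Atf7 from 3.96 ± 0.351 to 5.46 ± 0.138 (adjusted p = 0.0470). Without 1 tumour in turn, Maf passed in 5, Atf1 in 4 and Atf7 in 1 of the 8 fits, and Atf7 did not pass with the length and GC trends removed (0.058, adjusted p = 0.704). Maff, given above, was the fall. Atf4, the stress factor that drives Atf3 and the most abundant of this list, was 106 ± 15.2 FPKM in ICI and 74.4 ± 13.3 in RI without passing (adjusted p = 0.0825), and Mafg was 34.1 ± 2.71 and 32.6 ± 6.31 (adjusted p = 0.760). In the integrated stress response, which leads to ATF3, 3 of 17 genes fell and 14 did not pass: Ppp1r15a, Cebpb (271 ± 65.1 to 142 ± 13.2 FPKM, adjusted p = 0.0260) and Nupr1 (37.2 ± 11.5 to 16.4 ± 7.77, adjusted p = 0.0332). Cebpb encodes a bZIP factor of inflammation and Nupr1 a stress-induced chromatin protein. Nupr1 passed in 3 and Cebpb in 2 of the 8 fits that left out 1 tumour, and Cebpb did not pass with the length and GC trends removed (−0.50, adjusted p = 0.112). Phgdh, the first enzyme of serine synthesis, was 70.8 ± 21.9 and 116 ± 20.3 FPKM (adjusted p = 0.0647).

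Downstream, genes with known AP-1 control did not share one direction. Of 22 tested 1 rose, 1 fell and 20 did not pass, with a median of 0.30, where 11.1% of all genes rose and 6.60% fell. Ccnd1, the G1 cyclin that Jun and Fos proteins drive, rose from 92.8 ± 40.3 to 193 ± 13.7 FPKM (SD, n = 4 per group, adjusted p = 0.0315). Every RI tumour was above every ICI tumour, an order shared by 16.7% of tested genes. Vegfa, the angiogenic growth factor, fell from 35.3 ± 11.5 to 18.2 ± 6.44 FPKM (adjusted p = 0.0455). Spp1, which encodes osteopontin, was 269 ± 123 and 401 ± 129 FPKM (adjusted p = 0.269), and the metallothionein Mt1 was 249 ± 94.0 and 132 ± 59.8 (adjusted p = 0.121). Ccnd1 passed in 3 and Vegfa in 2 of the 8 fits that left out 1 tumour.

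Profiles like those of Fos and Egr1 were sought among all tested genes outside the members. Likeness was the mean absolute difference over the 8 tumours between log2 values, each centred on its gene's own mean. Nearest to Fos was Ppp1r15a, at 0.23, with 16.1, 12.1, 14.7 and 20.1 FPKM in ICI 1, 2, 3 and 4, against 4.13, 6.32, 3.70 and 8.004 in RI 1, 2, 4 and 5. Next came Mir1258 at 0.27 (a microRNA gene listed at 0 in the 4 RI tumours), Selenok at 0.29, the mitochondrially encoded mt-Nd2 at 0.30 and Atg9b at 0.31. Mir1258 was 1.65 to 7.05 FPKM in ICI, so it met the filter through the ICI tumours alone and at low levels. Its likeness to Fos is therefore weakly based. Nearest to Egr1 were Dvl3 at 0.09, Eogt at 0.10, Cpeb2 at 0.10, Dusp8 at 0.10 and Selenoo at 0.12. Between members the closest pair was Jun and Junb, at 0.26.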

How the data were processed

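RNA of 8 tumours was sequenced, and FPKM values were deposited by the authors in 1 table with a column per tumour. Alignment tool and build were HISAT2 and GRCm38 (mm10), per the submitters' processing notes. How fragments were counted, on which annotation and with what filter, is not given in the sources used here. Of 32098 rows, 31407 matched GENCODE M21 by identifier, which gave exon lengths, coordinates and GC content. Fragments were recovered from the steps between FPKM values of up to 50 fragments (98.6% to 98.8% within 0.05 of a whole number). No 2 libraries were alike within sampling noise (smallest chi-square per gene 37.4).

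Groups and replicate numbers come from the sample titles. The difference RI minus ICI of log2(FPKM + 1) was tested two-sided with limma 3.58.1 in R 4.3.3, using eBayes with its trend and robust options. The pseudocount of 1 understates changes of low genes. Adjusted p-values are Benjamini-Hochberg values over the 13439 genes that reached 1 FPKM in 4 or more tumours. Called means an adjusted p under 0.05. The fit was tested on simulated data with known shifts.

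The members and the 8 pathway and 11 cell marker lists were chosen with earlier results of these data known. Named are all members, the called genes of each pathway list (the 4 with the smallest p where more than 4 passed), the 2 most abundant genes of each list, Srf and Nab2, and the 5 genes nearest in profile to Fos and to Egr1 (Gm and Rik models left out). Some genes that this rule names are not reported here. The alternatives, 23 in all, are given at the end. No batch is given in the labels.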

Additional observations from a re-analysis of the deposited data

Results flagged for a closer look

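Fosb in ICI 4 was set apart from its group: the gap to the next ICI tumour was 0.890 of the whole ICI range on the log2(FPKM + 1) scale. Its level there was 37.7 FPKM, against 1.86 to 2.82 in the other 3. Of the 20 groups of 4 tumours checked (10 members in ICI and in RI) this was the 1 so marked, and chance marks about 1 group in 20. In the same tumour Fos was 70.3 FPKM and Atf3 39.4 FPKM, the highest of the 8 tumours for both.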

How the results depend on the processing

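With no filter on low values 241 genes, 0 members and 0 pathway genes were called. TPM, which moved the median difference of all genes from 0.01 to 0.11, gave 280, 1 (Fos) and 3, and array weights gave 4319 genes and 41 pathway genes. Main values were 2373 genes (62.6% up, against 48.0% of 3123 after median centring and 53.4% of 3320 after upper-quartile scaling), 4 members and 22 of 138 pathway genes. Limma voom called 34 pathway genes. Leaving out 1 tumour gave 336 to 2693 genes, 1 to 4 members and 2 to 28 pathway genes, the fewest genes being called without ICI 4. The count of genes also moved by over 1.5 times without RI 1 (999), RI 2 (672) and RI 5 (1017), and 1 member was called without ICI 4 (Fos), RI 1 (Jun) or RI 2 (Jun), and 2 without RI 4 (Jun and Junb) or without ICI 1 and RI 4 together. The cause of these shifts was not tested.

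With the replicate number as a block 22 genes, 0 members and 0 pathway genes were called, and 3, 0 and 0 with the block and the length and GC correction. Deviations of same-numbered tumours had correlations of −0.09, −0.12 and −0.12, inside the range of differently numbered pairs (−0.15 to 0.21). Values this few cannot decide whether same-numbered tumours share a batch or more than a number. The fit with the block leaves few degrees of freedom, since the numbers 3 and 5 occur once. The sign changed for Fosl1 (0.027, and 0.089 with the block added) and Fosl2 (−0.028) with the trends removed, and for Egr1 (0.051) with array weights. Fos passed in 16, Jun in 18, Junb in 14 and Jund in 9 of 23 alternatives, and all 4 were lower in RI in each. Depth limits none of the members, whose lowest count was 281 fragments.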

Other observations

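Some early genes outside the members were high in 1 tumour, and these were picked after their values were seen. Klf2, a factor of quiescent endothelium and lymphocytes, was 293, 16.3, 16.3 and 71.3 FPKM in ICI 1, 2, 3 and 4 and 8.82, 11.2, 6.55 and 15.3 FPKM in RI 1, 2, 4 and 5. The groups did not overlap, yet limma gave adjusted p = 0.107 for a log2 difference of −2.19, which was −1.15 without ICI 1 and RI 4 together (adjusted p = 0.182). Btg2 was 26.1 FPKM and Cebpd 40.8 FPKM in ICI 1, against at most 7.83 and 10.1 in the other 7 tumours. ICI 1 also had 387 FPKM of summed endothelial markers, against 21.1 to 60.3 in the others. Their part in these levels was not tested.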
